A study of Mus musculus with 24 samples.

Results

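The hedgehog pathway genes described here are 9 members among the 56748 genes counted in mouse dental mesenchyme, chosen by name for their role as ligand, receptor, co-receptor, antagonist or transcription factor of the pathway. They are the ligand Shh, the receptor Ptch1, the signal transducer Smo, the co-receptors Boc and Gas1, the ligand-binding antagonist Hhip, and the zinc finger transcription factors Gli1, Gli2 and Gli3. All 9 were found in the count table and were followed across 24 RNA-seq libraries in 8 groups of 3. The first mandibular molar tooth germs came from ICR mice without any transgene or treatment, taken at E13 (cap stage) or E15 (bell stage). The groups were the undivided dental mesenchyme of both stages (Cap-W and Bell-W), its lingual and buccal parts (Cap-L, Cap-B, Bell-L and Bell-B), and the cap stage parts after 2 days of culture (Cap-L+2D and Cap-B+2D). Germs were split with a fine needle, per the labels some of the parts were then cultured, and the mesenchyme was freed with dispase II. The study's methods state the number of biological replicates in ways that conflict, as triplicates and as fewer, and no source used here says how many germs a library holds or ties a library to an embryo or litter, so p-values measure the spread between these libraries, which may be technical.

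In the developing tooth, Shh is made by the dental epithelium, the enamel knot included, and reaches the mesenchyme next to it. Without ligand, Ptch1 keeps Smo inactive and Gli3, and in part Gli2, are cut into repressors. With ligand bound, Smo becomes active, Gli2 and Gli3 are spared this processing, and transcription of Gli1, Ptch1 and Hhip goes up, so the levels of these genes are commonly read as a response to the pathway. Boc, Gas1 and the related protein Cdon bind the ligand together with Ptch1 and aid its reception, and their genes are commonly lowered by the signal. Ptch1 and Hhip also bind the ligand and limit its spread.

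Counts per library totalled between 20581720 and 39266497, and 3 counts, taken as the floor of detection, came to between 0.0764 and 0.146 CPM (counts per 1000000). Levels are given as CPM normalized with the TMM method over all 24 libraries. All 9 dental mesenchyme markers, such as Msx1 and Pax9, were above the floor in every group, with a summed level between 2050 and 3850 CPM. Markers of epithelium were also found in every group. The sum of 10 of them, Epcam, Cdh1 and keratins included, ran from 457 to 502 CPM in Cap-L, 348 to 362 in Cap-B, 332 to 492 in Cap-W, 736 to 766 in Bell-L and 508 to 529 in Bell-B. After culture it was 401 to 433 CPM in Cap-L+2D and 31.2 to 33.3 in Cap-B+2D, and no epithelial marker was at or under the floor in all 3 libraries of any group. In Bell-W the sum was 535, 459 and 2030 CPM, so that replicate 3 stood apart. Cap-W replicate 1 also stood apart, with 5.39% of its counts in the ribosomal RNA gene Rn18s-rs5 against 0.264% and 0.304% in the other Cap-W libraries, and a mean chi-square per gene of 189 and 145 against them where they differed from each other by 8.99. A second list, of 10 genes of the enamel knot and dental epithelium such as Sostdc1 and Wnt10b, summed to 140 to 182 CPM in Cap-W, 187 to 205 in Cap-L, 125 to 131 in Cap-B, 248 to 257 in Cap-L+2D and 133 to 138 in Cap-B+2D, and to 382 to 385 in Bell-L, 370 to 397 in Bell-B and 308 to 584 in Bell-W. Of these 10 genes, Fgf4 and Dkk4, both known from the enamel knot, did not exceed the floor in any library of Cap-B or Cap-B+2D. In Cap-W and in Cap-L 1 of the 10 was also at or under the floor in all 3 libraries. In Cap-L+2D and the bell stage groups 0 were. Skeletal muscle markers summed to between 4620 and 4780 CPM in Cap-B+2D, 1120 to 1140 in Bell-B, 364 to 389 in Cap-L+2D, 258 to 275 in Cap-B, 134 to 144 in Bell-L and 10.3 to 22.8 in the other 3 groups. In bulk RNA, a smaller share of the cells that make a transcript cannot be told apart from less of it in each cell.

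Hedgehog response genes are known for GLI sites near their start, so the motif GACCACCCA was searched, with its reverse complement TGGGTGGTC, in the 300 bases before the start of the canonical transcript of each member. Among the 9 members it was found in Ptch1 alone. It was present in 52 of 21770 promoters of protein-coding genes of the same length (0.24%). The stretch below runs 5′ to 3′ on the strand of the gene in GRCm39, with 60 bases on each side of the motif, which is in capitals. It is shown because Ptch1 is the member in which the motif was found.
Ptch1, chr13:63714189-63714317, minus strand: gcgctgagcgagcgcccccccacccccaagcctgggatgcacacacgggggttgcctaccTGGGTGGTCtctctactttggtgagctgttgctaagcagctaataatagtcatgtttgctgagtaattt
The motif lay from 165 to 157 bases before the start. The stretch lies inside the gene as annotated, between the starts of longer and shorter transcripts, and overlaps no exon. Widening the window to 1000 bases, where 0.83% of promoters held the motif, added no match among the members. The match is a description of the letters, and no binding was measured.

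Shh (chr5:28661813-28672254, minus strand) was the least abundant member per kilobase of exon in every group, and its level separated the stages. Normalized levels in the 3 libraries were 0.90, 0.99 and 1.68 CPM in Cap-W, 0.18, 0.25 and 0.28 in Cap-L, and 0.045, 0.084 and 0.158 in Cap-B, where the last rest on 1, 2 and 4 counts. At the bell stage they were 12.9, 13.7 and 15.1 CPM in Bell-L, 11.0, 10.1 and 10.8 in Bell-B, and 3.48, 4.38 and 29.05 in Bell-W. Every bell library was thus above every cap library, and within Bell-W the highest value came from replicate 3, the library with 2030 CPM of epithelial markers. After culture, Shh was at 1.79, 1.10 and 1.41 CPM in Cap-L+2D, above all 3 Cap-L libraries, and had 0 counts in all 3 libraries of Cap-B+2D. A count of 0 allows up to 3 counts, or 0.0845 to 0.105 CPM in these libraries. Of the exonic length of Shh, 15.7% lies over exons of other genes, where read pairs were not counted. The plot of the ligand and response genes gives these values by group.

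**Figure D1:**
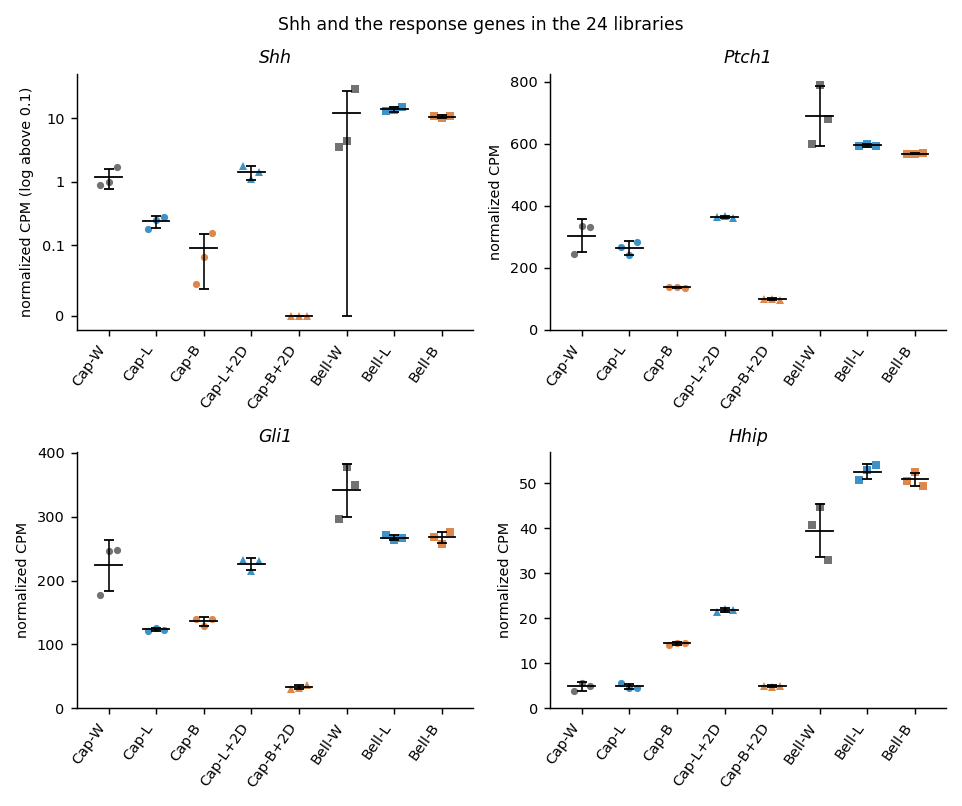
Normalized CPM (vertical axes) of Shh, Ptch1, Gli1 and Hhip in the 3 libraries of each of the 8 groups (horizontal axes); each symbol is a library, the horizontal line the mean and the bar 1 SD, with the lower bar of Shh in Bell-W ending at 0. The axis of Shh is linear up to 0.1 and logarithmic above, and those of the other genes are linear from 0. All 4 genes were highest in the bell stage groups, and Shh, Ptch1 and Gli1 were lowest in Cap-B+2D, where Shh had 0 counts.

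Taken over the summed counts, Shh was 58.2 times as high in Bell-L as in Cap-L (95% exact Poisson interval 38.3 to 93.3, counting error only) and 109 times as high in Bell-B as in Cap-B (52.6 to 271), the latter against 7 counts in all. Both differences were called (edgeR's quasi-likelihood test, Benjamini-Hochberg adjusted p = 5.11e-19 and 1.61e-21), and no fitted SE is given for Shh against groups of so few counts. In the undivided mesenchyme the fitted log2 fold change was 3.35 ± 0.87 (SE, adjusted p = 0.0368). That value fell to 1.71 without Bell-W replicate 3 (adjusted p = 0.0265), and the call was lost without any one of the Cap-W libraries (adjusted p of up to 0.111). Epithelial markers were higher at the bell stage in 4 of 10 in the lingual part and 2 of 10 in the undivided mesenchyme. In the buccal part 6 were higher and 1 lower. Of all genes, 14.2% were higher in the lingual part, 12.0% in the buccal part and 10.3% in the undivided mesenchyme, and 6.73% were lower in the buccal part. Of the enamel knot and dental epithelium genes, 6 of 10 were higher in the lingual part, 8 of 9 tested in the buccal part and 3 of 9 tested in the undivided mesenchyme. Macrophage markers were higher in 6 of 6 in each of these comparisons. Muscle markers were higher in 10 of 10 in both parts and 0 of 9 tested in the undivided mesenchyme. Endothelial markers were higher in 7 of 7 in the undivided mesenchyme, 2 of 7 in the lingual part and 0 of 7 in the buccal part. Osteoblast markers were lower in 5 of 7 in the lingual part, but higher in 3 of 7 in the buccal part and 4 of 6 tested in the undivided mesenchyme. The part of all these markers in the difference of Shh was not tested. In Cap-L+2D Shh was 5.90 times as high as in Cap-L (3.73 to 9.75). The epithelial marker sums of these 2 groups were 401 to 433 and 457 to 502 CPM. The sum of the enamel knot and dental epithelium genes was 248 to 257 CPM in Cap-L+2D and 187 to 205 in Cap-L. Of these genes 2 of 10 were called higher after culture and 3 lower, where 19.6% of all genes were higher and 15.9% lower. Sostdc1 made up most of this sum in Cap-L+2D, at 181 CPM on average against 73.2 in Cap-L. The part of these markers in the difference of Shh after culture was not tested.

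Ptch1 (chr13:63656142-63721412, minus strand) binds the ligand and is itself induced by it. Its levels were 240 to 284 CPM in Cap-L, 134 to 139 in Cap-B and 245 to 336 in Cap-W. At the bell stage they were 592 to 601 CPM in Bell-L, 568 to 571 in Bell-B and 598 to 791 in Bell-W. In each of the 3 pairs of groups all bell libraries lay above all cap libraries, with log2 fold changes of 1.19 ± 0.05 in the lingual part (adjusted p = 4.06e-16), 2.05 ± 0.03 in the buccal part (adjusted p = 9.73e-31) and 1.17 ± 0.17 in the undivided mesenchyme (adjusted p = 0.00345). The difference between the sides in this rise was itself past the threshold in the interaction of side and stage, at 0.85 ± 0.07 (adjusted p = 1.14e-11). Ptch1 was 0.92 ± 0.06 lower on the log2 scale in Cap-B than in Cap-L (adjusted p = 2.63e-10), whereas at the bell stage the difference was -0.07 ± 0.03 (adjusted p = 0.0819).

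Gli1 (chr10:127165751-127177843, minus strand), the activator whose transcription depends on the signal, rose from 122 to 126 CPM in Cap-L to 264 to 271 in Bell-L, from 128 to 140 in Cap-B to 258 to 276 in Bell-B, and from 177 to 248 in Cap-W to 296 to 378 in Bell-W. The libraries of the stages did not overlap in any of these pairs. The log2 fold changes were 1.13 ± 0.04 in the lingual part (adjusted p = 4.14e-17), 0.97 ± 0.04 in the buccal part (adjusted p = 5.44e-19) and 0.60 ± 0.16 in the undivided mesenchyme (adjusted p = 0.0406), where the call was lost in each fit that left out a library, with an adjusted p of up to 0.147. Unlike Ptch1, Gli1 did not pass the limit of 0.5 on the log2 fold change between the sides at either stage, with 0.17 ± 0.05 at the cap (adjusted p = 0.00654) and 0.0020 ± 0.0316 at the bell stage (adjusted p = 0.97). Of the exonic length of Gli1, 6.55% lies over exons of other genes, and read pairs there were not counted.

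Hhip (chr8:80692480-80784635, minus strand), the membrane-bound protein that captures the ligand, had a larger log2 fold change between the stages than Ptch1 and Gli1 in the lingual part and the undivided mesenchyme. It was at 4.46 to 5.54 CPM in Cap-L and 3.82 to 5.66 in Cap-W but at 14.1 to 14.6 in Cap-B, and at the bell stage at 50.7 to 54.1 in Bell-L, 49.5 to 52.5 in Bell-B and 32.9 to 44.6 in Bell-W. The bell groups lay far above the cap groups, with log2 fold changes of 3.46 ± 0.07 in the lingual part (adjusted p = 3.28e-22), 1.81 ± 0.05 in the buccal part (adjusted p = 9.24e-24) and 3.01 ± 0.19 in the undivided mesenchyme (adjusted p = 0.000244). At the cap stage Hhip was 1.61 ± 0.09 higher in the buccal part (adjusted p = 9.21e-11), the opposite side from Ptch1. The bell stage parts differed by -0.05 ± 0.04 (adjusted p = 0.369). The interaction of side and stage was -1.67 ± 0.10 (adjusted p = 1.52e-14).

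Across the members, 4 of the 9 rose and 1 fell from cap to bell in the undivided mesenchyme, where 14.5% of all 20940 genes tested were called, 10.3% higher and 4.21% lower. The lingual part gave 4 higher and 1 lower, against 20.0% of all genes called (14.2% higher and 5.78% lower), and the buccal part 4 higher and 1 lower, against 18.7% (12.0% and 6.73%). Shh, Ptch1, Gli1 and Hhip were the 4 in each. The gene that fell was Gli2 in the undivided mesenchyme and the lingual part, and Boc in the buccal part. Without Cap-W replicate 1, the library rich in ribosomal RNA and the lowest of its group for Ptch1, Gli1 and Hhip, the log2 fold changes in the undivided mesenchyme were 1.04 for Ptch1 (adjusted p = 0.00484), 0.46 for Gli1 (adjusted p = 0.0463, under the limit of 0.5), 2.87 for Hhip (adjusted p = 0.000698) and -0.88 for Gli2 (adjusted p = 0.00343). Without Bell-W replicate 3 they were 1.18 for Ptch1 (adjusted p = 0.00995), 0.58 for Gli1 (adjusted p = 0.0811), 3.13 for Hhip (adjusted p = 0.000707) and -0.98 for Gli2 (adjusted p = 0.00526). The count in the undivided mesenchyme was 3 to 4 with any one library left out, and 3 without any one of the Cap-W libraries. The median log2 fold change of the members was -0.081 in the undivided mesenchyme, 0.46 for the lingual part and -0.091 for the buccal part, where that of all genes was -0.033, 0.0017 and 0.0050. In Bell-W replicate 3, the library rich in epithelial markers, Ptch1 was at 679 CPM, Gli1 at 350 and Hhip at 32.9. The other Bell-W libraries were at 598 and 791 CPM for Ptch1, 296 and 378 for Gli1, and 40.8 and 44.6 for Hhip. The part of epithelial cells in these levels was not tested.

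**Figure D2:**
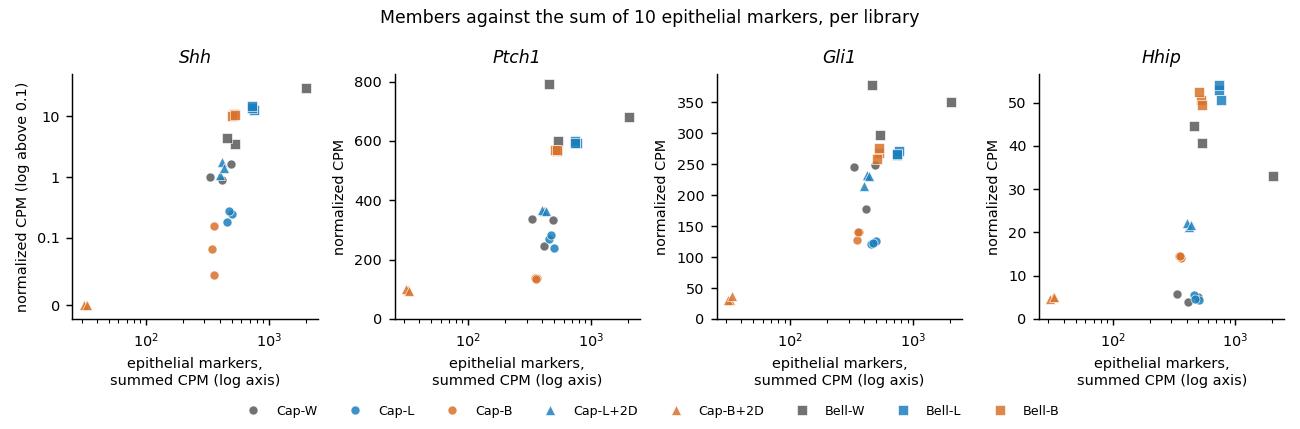
Normalized CPM of Shh, Ptch1, Gli1 and Hhip (vertical axes; that of Shh linear up to 0.1 and logarithmic above) against the summed CPM of 10 epithelial markers (logarithmic horizontal axes), with 1 symbol for each of the 24 libraries. The 3 Cap-B+2D libraries are at 31.2 to 33.3 CPM of epithelial markers and the lowest Shh, Ptch1 and Gli1, and Bell-W replicate 3, at 2030 CPM, is highest for Shh only.

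At the cap stage the 2 parts differed in 4 of the 8 members that could be tested, 3 higher in the buccal part and 1 in the lingual part, where 17.5% of all genes were called (10.4% higher in the buccal part and 7.10% lower). Shh was left out of this comparison by the filter on low counts. Its summed counts were 22 in Cap-L and 7 in Cap-B, a ratio of 2.45 with an interval of 1.01 to 6.78 for counting error alone. Of the 4, Ptch1 was the one higher in the lingual part, while Hhip and both co-receptors were higher in the buccal part. Of 10 epithelial markers, 7 were lower in Cap-B, and all 10 muscle markers were higher there. Of the enamel knot and dental epithelium genes tested, 5 of 8 were lower and 1 higher in Cap-B. Osteoblast markers were lower there in 6 of 6 tested (446 to 463 against 974 to 984 CPM) and cartilage markers in 4 of 4 tested (125 to 130 against 262 to 279 CPM), while 6 of 7 markers of Schwann cells and glia were higher and 1 lower (62.2 to 67.2 against 29.5 to 31.1 CPM). The part of these cell types in the differences of the members was not tested.

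Boc (chr16:44305412-44379260, minus strand), a cell surface co-receptor, stood at 102.8, 106.8 and 102.1 CPM in Cap-L and 206 to 214 in Cap-B, a log2 difference of 1.03 ± 0.04 (adjusted p = 6.11e-13). Gas1 (chr13:60322219-60325179, minus strand), a lipid-anchored co-receptor, stood at 68.6 to 76.8 CPM in Cap-L and 196 to 201 in Cap-B, a log2 difference of 1.48 ± 0.05 (adjusted p = 1.53e-14). Both genes were higher in every buccal than in every lingual library of the cap stage. At the bell stage Gas1 was at 97.1 to 100.1 CPM in Bell-L and 161 to 175 in Bell-B (log2 difference 0.78 ± 0.03, adjusted p = 2.84e-22), and Boc at 97.8 to 102 and 133 to 144 (0.46 ± 0.03, adjusted p = 8.70e-15, under the limit of 0.5). The side difference of both was smaller at the bell stage than at the cap stage, by 0.58 ± 0.05 for Boc (adjusted p = 1.07e-09) and 0.70 ± 0.06 for Gas1 (adjusted p = 1.05e-10). Of the exonic length of Gas1, 19.9% overlaps another gene and so was not counted.

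Gas1 was the 1 member of 9 called between the parts at the bell stage, against 12.9% of all genes (6.00% higher in the buccal part and 6.88% lower). Of the remaining members, Shh was at -0.39 ± 0.07 on the log2 scale (adjusted p = 3.68e-05) and Gli2 at -0.32 ± 0.04 (adjusted p = 1.98e-09), both lower in Bell-B but within the limit of 0.5. The side by stage interaction passed the threshold in 5 of the 9 members, 1 positive and 4 negative, where 32.5% of all genes passed it (14.5% positive and 18.0% negative). These were Ptch1, Hhip, Boc, Gas1 and Gli1. That of Gli1 was -0.17 ± 0.06 (adjusted p = 0.0202) and was lost in 7 of the alternatives, among them those without Cap-L replicate 1, Cap-B replicate 1, Cap-B replicate 3 or Bell-B replicate 2 (adjusted p from 0.0561 to 0.11). That of Shh was not called (adjusted p = 0.274).

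**Figure D3:**
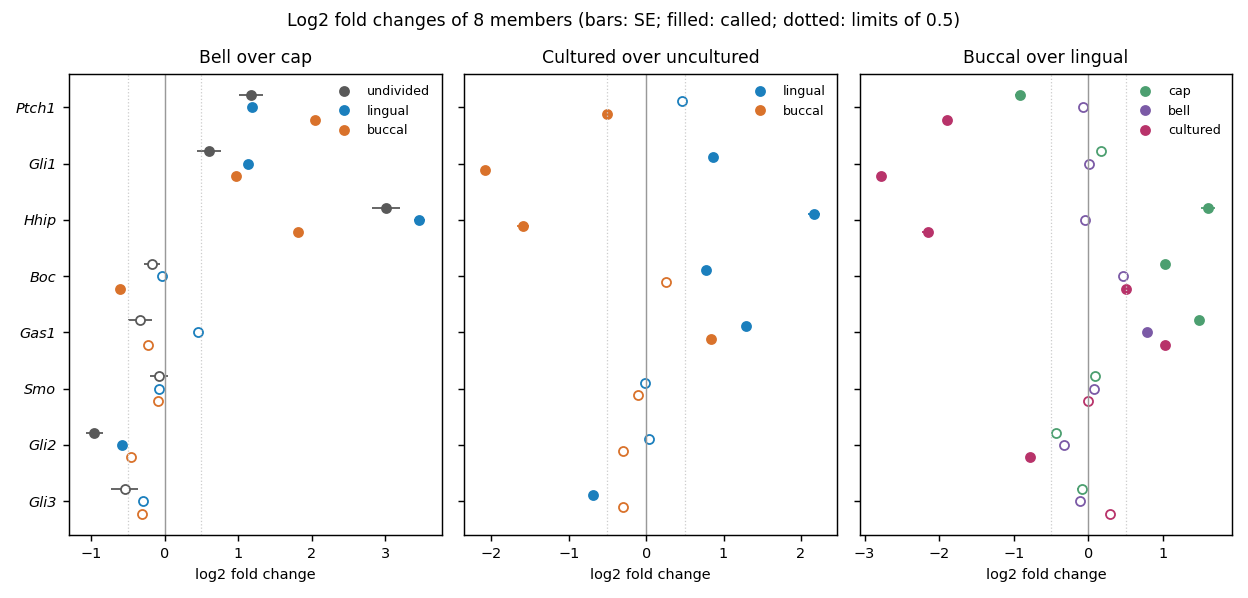
Log2 fold changes (horizontal axes) of 8 members, with bars of 1 SE, for bell over cap in 3 tissues, cultured over uncultured in 2 parts, and buccal over lingual at 3 time points. Filled symbols passed an adjusted p of 0.05 and the limit of 0.5 on the log2 fold change, drawn as dotted lines. Shh is left out because its fits involve groups at or near 0 counts. The response genes Ptch1, Gli1 and Hhip lie to the right for the cultured lingual part and to the left for the cultured buccal part, and Boc and Gas1 lie to the right in both.

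After 2 days of culture the response genes moved apart between the parts, while the side differences of Boc and Gas1 became smaller. In the lingual part 5 members rose and 1 fell relative to Cap-L, where 35.4% of all genes were called (19.6% higher and 15.9% lower). In the buccal part 1 rose and 4 fell relative to Cap-B, against 34.5% of all genes (17.9% higher and 16.6% lower), and a fit of all 24 libraries together called 3 of the 9. Cap-L and Cap-B also served as the uncultured reference of the bell stage comparisons above, so the comparisons are not independent. The side by culture interaction, which tests whether the parts changed differently, passed the threshold in 8 of 9 members, 1 positive and 7 negative, where 35.5% of all genes passed it (16.0% positive and 19.5% negative). The member that did not pass was Smo.

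Gli1 moved in opposite directions in the 2 parts. It was at 232, 215 and 231 CPM in Cap-L+2D, above all Cap-L libraries, and at 31.0, 31.1 and 37.0 CPM in Cap-B+2D, below all Cap-B libraries. It thus rose by 0.86 ± 0.04 (log2) in the cultured lingual part (adjusted p = 3.16e-15) and fell by 2.08 ± 0.05 in the cultured buccal part (adjusted p = 8.77e-27). The interaction was -2.95 ± 0.08 (adjusted p = 4.79e-23). Hhip was at 21.3, 22.2 and 21.8 CPM in Cap-L+2D and at 4.98, 4.68 and 5.05 in Cap-B+2D. It rose by 2.17 ± 0.08 in the lingual part (adjusted p = 7.98e-18) and fell by 1.59 ± 0.08 in the buccal part (adjusted p = 1.54e-18), so the side on which it was higher turned from buccal at the cap stage to lingual after culture (interaction -3.77 ± 0.12, adjusted p = 4.32e-21).

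Ptch1 was at 366, 369 and 362 CPM in Cap-L+2D and at 99.1, 101 and 95.3 in Cap-B+2D. All cultured lingual libraries exceeded all Cap-L libraries, with a log2 fold change of 0.46 ± 0.05 (adjusted p = 1.22e-08) that stayed under the limit of 0.5 but passed it without Cap-L replicate 3 (0.51). All cultured buccal libraries were below all Cap-B libraries, and Ptch1 fell by 0.51 ± 0.03 there (adjusted p = 1.19e-14), a value so near the limit that 6 of the alternatives, between -0.48 and -0.49, took it under, the fit without Cap-B+2D replicate 3 among them. The interaction was -0.98 ± 0.07 (adjusted p = 5.26e-13). Shh rose in the lingual part, by the ratio of counts given above (adjusted p = 2.72e-08). In the buccal part it went from 7 counts in all to 0, which was called (adjusted p = 0.00225) but not when all 24 libraries were fitted together (adjusted p = 0.272), and no fold is given between groups this close to the floor.

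Between the cultured parts, 7 of 9 members were called, 2 higher and 5 lower in the buccal part, where 25.1% of all genes were called (12.5% in either direction). Shh was at least 15-fold lower in Cap-B+2D, taking 3 counts per library as its floor. Gli1 was lower by 2.78 ± 0.06 on the log2 scale (adjusted p = 2.20e-23), Hhip by 2.16 ± 0.08 (adjusted p = 3.62e-18), Ptch1 by 1.90 ± 0.04 (adjusted p = 2.93e-23) and Gli2 by 0.78 ± 0.04 (adjusted p = 2.50e-14). Boc and Gas1 were the members higher in the buccal part. The median log2 difference of the 9 was -0.78, beside 0.00091 for all genes.

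Boc and Gas1 rose in the cultured lingual part. Boc was at 182, 171 and 185 CPM in Cap-L+2D (log2 fold change 0.78 ± 0.04, adjusted p = 2.98e-14) and Gas1 at 177, 190 and 167 (1.29 ± 0.05, adjusted p = 2.95e-17), above every Cap-L library. In Cap-B+2D both reached their highest levels of the series. Gas1 was at 374, 363 and 356 CPM there and rose by 0.84 ± 0.03 over Cap-B (adjusted p = 8.87e-21). Boc was at 252, 257 and 259 CPM, 0.26 ± 0.03 from Cap-B (adjusted p = 3.08e-08), under the limit. The interaction of side and culture was -0.53 for Boc (adjusted p = 1.03e-08) and -0.45 for Gas1 (adjusted p = 2.39e-06). Between the cultured parts Gas1 differed by 1.03 ± 0.04 (adjusted p = 1.07e-16) and Boc by 0.51 ± 0.04 (adjusted p = 2.15e-11), a call that was lost without Cap-L+2D replicate 2 (0.48) or Cap-B+2D replicate 3 (0.50).

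Epithelial markers also differed between these groups. Between the cultured parts 9 of the 10 were lower in Cap-B+2D, and against Cap-B all 10 were lower, with summed levels of 31.2 to 33.3 CPM against 348 to 362. Of all genes, 12.5% and 16.6% were lower in these comparisons. In the lingual part 5 of 10 were lower and 2 higher after culture, where 15.9% of all genes were lower and 19.6% higher. All 10 muscle markers were higher in Cap-B+2D than in Cap-L+2D and than in Cap-B, and all 10 were also higher in Cap-L+2D than in Cap-L. Of the dental mesenchyme markers, 3 of 9 were lower and 1 higher in Cap-B+2D than in Cap-L+2D, with summed levels of 2130 to 2180 against 2450 to 2520 CPM. Osteoblast markers were lower in Cap-B+2D in 7 of 7 (600 to 611 against 2420 to 2440 CPM) and endothelial markers in 6 of 7 (173 to 175 against 423 to 427 CPM). Of the enamel knot and dental epithelium genes 3 of 8 tested were higher and 3 lower in Cap-B+2D, of the Schwann cell and glia markers 3 of 5 tested higher and 2 lower, and of the macrophage markers 3 of 6 lower. Against Cap-B, 4 of 9 tested enamel knot and dental epithelium genes were higher in Cap-B+2D and 4 lower (17.9% and 16.6% of all genes). The similar sums of this list, 133 to 138 and 125 to 131 CPM, thus do not stand for each gene. The part of these markers in the differences of Shh, Ptch1, Gli1 and Hhip was not tested.

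Smo (chr6:29735502-29761364, plus strand) is the transducer on which the pathway depends. Its group means lay between 260 CPM in Bell-L and 290 in Cap-B, a narrower span than that of any other member, and every group overlapped its neighbours in the order of the means. No comparison called it, with log2 fold changes from -0.10 ± 0.03 in the cultured buccal part (adjusted p = 0.00899) to 0.08 ± 0.04 between the cap stage parts (adjusted p = 0.133). Per kilobase of exon, Smo at 49.2 ± 1.9 CPM (SD, n = 3) in Cap-B+2D compares with 6.95 ± 0.21 for Ptch1 and 6.61 ± 0.69 for Gli1 in the same libraries, and in Bell-L 46.3 ± 1.6 for Smo compares with 42.0 ± 0.3 for Ptch1 and 53.5 ± 0.7 for Gli1.

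Gli2 (chr1:118761862-118981349, minus strand), the main activator of the family, was highest in Cap-W, Cap-L and Cap-L+2D, which overlapped each other between 131 and 169 CPM. It was at 101 to 105 CPM in Cap-B, 83.4 to 89.3 in Cap-B+2D, 91.6 to 96.8 in Bell-L, 70.3 to 77.3 in Bell-B and 72.8 to 83.8 in Bell-W. From cap to bell it fell by 0.96 ± 0.11 on the log2 scale in the undivided mesenchyme (adjusted p = 0.00181) and by 0.59 ± 0.05 in the lingual part (adjusted p = 8.98e-10), and was at -0.46 ± 0.04 in the buccal part (adjusted p = 1.62e-11). Gli2 was on the lingual side at all 3 time points, with -0.44 ± 0.06 for the cap stage, -0.32 ± 0.04 for the bell stage and -0.78 ± 0.04 after culture, of which only the last passed the limit (the first also did without Cap-L replicate 2, at -0.50). Gli3 (chr13:15637820-15904611, plus strand), the main repressor, spanned a factor of 2.08 between its highest mean, 286 ± 7 CPM (SD, n = 3) in Cap-W, and its lowest, 137 ± 4 in Cap-L+2D. Its single call in the 8 comparisons of 2 groups was a fall of 0.68 ± 0.06 in the cultured lingual part (adjusted p = 1.20e-10).

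**Figure D4:**
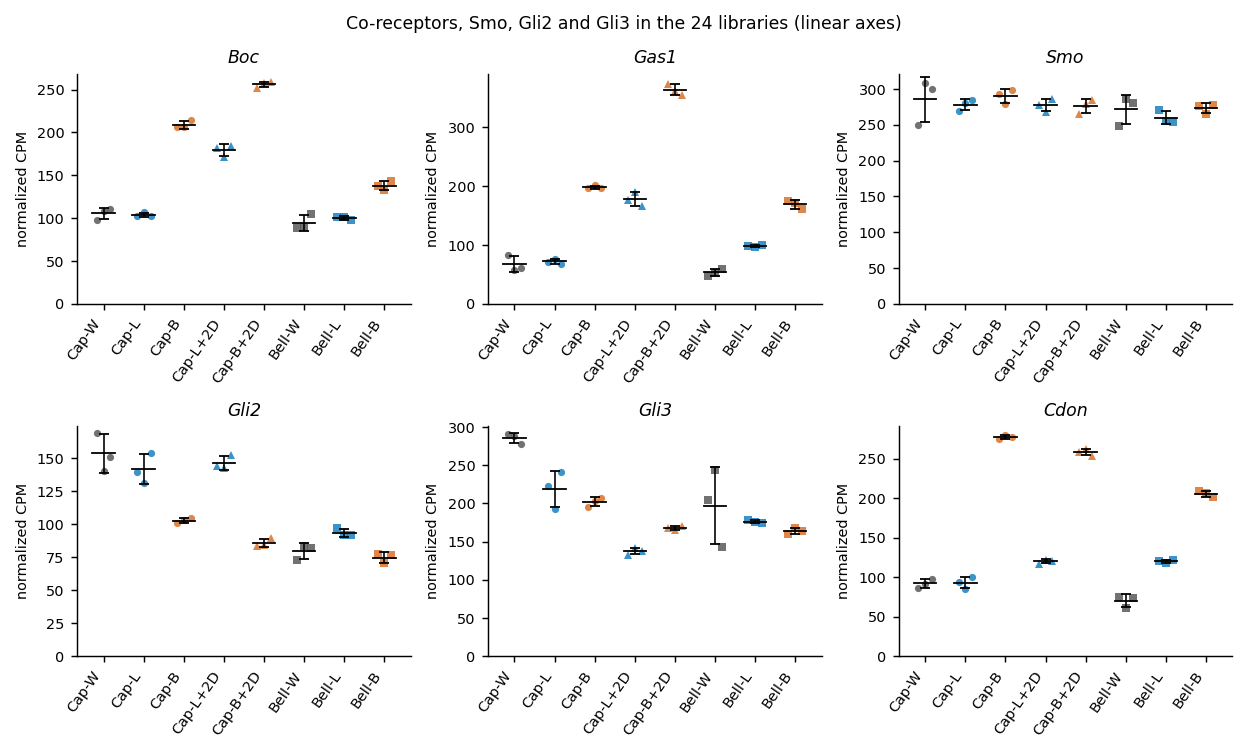
Normalized CPM (vertical axes, linear from 0) of Boc, Gas1, Smo, Gli2 and Gli3, and of the further co-receptor gene Cdon, in the 3 libraries of each of the 8 groups (horizontal axes); symbols are libraries, lines means and bars 1 SD. Boc, Gas1 and Cdon were higher in Cap-B than in Cap-L, while the 8 group means of Smo lie between 260 and 290 CPM.

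The undivided libraries did not always lie between those of the 2 parts, and no test was made between them. Shh in Cap-W, at 0.90 to 1.68 CPM, was above all Cap-L and Cap-B libraries, the highest of which was at 0.28 CPM. By summed counts Shh was 11.3 times as high in Bell-W as in Cap-W, a smaller ratio than in either part. Gli1 in Cap-W, at 177 to 248 CPM, was above all Cap-L and Cap-B libraries, the highest of which was at 140 CPM, and Gas1 in Bell-W, at 53.7 ± 6.2 CPM (SD, n = 3), was below all Bell-L and Bell-B libraries. In order of group means, Ptch1 fell from Bell-W through Bell-L, Bell-B, Cap-L+2D, Cap-W, Cap-L and Cap-B to Cap-B+2D, and of these neighbours Bell-W and Bell-L, and Cap-W and Cap-L, overlapped in their libraries. For Gli1 the order was Bell-W, Bell-B, Bell-L, Cap-L+2D, Cap-W, Cap-B, Cap-L and Cap-B+2D, with an overlap of Bell-B and Bell-L and of Cap-L+2D and Cap-W. Cap-B+2D was thus lowest for Shh, Ptch1 and Gli1, but for Hhip it overlapped Cap-W and the latter Cap-L.

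The other genes of the pathway were taken as 4 lists. Of the further ligand-binding proteins, Cdon, the co-receptor related to Boc, was at 85.4 to 99.7 CPM in Cap-L and 274 to 280 in Cap-B (log2 difference 1.60, adjusted p = 4.58e-14). It was also higher in Bell-B than in Bell-L (0.77, adjusted p = 2.53e-23) and in the buccal part after culture (1.09, adjusted p = 1.87e-18), and the side difference was smaller at the bell stage than at the cap stage (interaction -0.83, adjusted p = 8.41e-12). Lrp2, a large endocytic receptor, had group means between 0.135 and 1.41 CPM, the lowest near the floor. The third gene of this list was Gpc3. Of the 3 genes, 2 were higher in the buccal part of the cap stage, where 10.4% of all genes were. At the bell stage 2 were higher and 1 lower (6.00% and 6.88% of all genes), and also after culture (12.5% in either direction).

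Of the 7 genes of further ligands and ligand release, 2 were higher and 4 lower in the buccal part of the cap stage, where 10.4% and 7.10% of all genes were. At the bell stage 2 were higher and 1 lower (6.00% and 6.88% of all genes), and after culture 1 of the 6 tested was higher and 4 lower (12.5% of all genes in either direction). Disp1, the transporter that lets the lipid-modified ligand leave its cell, was higher in the buccal part at the cap stage (log2 difference 1.14, adjusted p = 1.23e-12), at the bell stage (0.61, adjusted p = 6.30e-15) and after culture (1.15, adjusted p = 7.33e-17). Scube1 and Scube3, secreted proteins of the family that takes up the ligand from Disp1, were lower there at the cap stage, by 1.38 and 1.99 (adjusted p = 4.68e-13 and 6.14e-15), and after culture, by 2.07 and 2.75 (adjusted p = 2.13e-22 and 7.34e-25), but were not called at the bell stage. Scube2, of the same family, was lower in the buccal part at all 3 time points, by 1.35 (adjusted p = 3.68e-06), 1.05 (adjusted p = 6.93e-07) and 0.70 (adjusted p = 4.61e-05) in turn, and Hhat, the enzyme that attaches palmitate to the ligand, was not called at any. Scube3 was at 112 to 122 CPM in Cap-L, 26.5 to 30.9 in Cap-B and 93.8 to 102 in Bell-B, and its rise in the buccal part was 1.78 (adjusted p = 7.39e-25). Ihh and Dhh, the other hedgehog ligands, stayed under 3 CPM in every library. The group means of Ihh lay between 0.43 CPM in Bell-L and 2.57 in Cap-L. Ihh was thus above Shh in Cap-L, Cap-B and Cap-B+2D, where Shh averaged 0.238, 0.095 and 0 CPM. Between the cap stage parts Ihh was called lower and Dhh higher in the buccal part. Group means of Dhh were 0.085 to 0.80 CPM, the lowest in Cap-L.

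The 14 intracellular regulators included the Gli-binding inhibitor Sufu and cilium proteins. Between the parts 0 were called at the cap stage, 0 at the bell stage and 3 after culture. Of all genes, 17.5%, 12.9% and 25.1% were called in these comparisons. The 3 called after culture were all lower in the buccal part by 0.62 to 0.65 (Sufu, Tulp3 and Arl13b). From cap to bell 0 were called in the lingual part, 1 in the buccal part and 2 in the undivided mesenchyme, and all 3 were lower. Of all genes, 20.0%, 18.7% and 14.5% were called there. Between the cultured and uncultured lingual part 3 were higher and 2 lower, and in the buccal part 4 were lower, where 35.4% and 34.5% of all genes were called, so that these shares lay near those of all genes. The interaction of side and stage, which has no limit on the fold change, passed in 2 positive and 6 negative (14.5% and 18.0% of all genes). That of side and culture passed in 1 positive and 8 negative (16.0% and 19.5% of all genes). DESeq2 also called 0 in each of the 3 comparisons where edgeR called 0, while edgeR's unadjusted p was under 0.05 in 9 genes at the cap stage, 5 at the bell stage and 10 from cap to bell in the lingual part.

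Of 12 genes known as hedgehog targets in mesenchyme elsewhere, 5 were lower and 3 higher in the buccal part of the cap stage, 4 and 1 in that of the bell stage, and 7 and 1 after culture. Of all genes, 7.10%, 6.88% and 12.5% were lower there at these time points, and 10.4%, 6.00% and 12.5% higher. After culture the list's median log2 difference was -1.04. The forkhead gene Foxf1 was at 194 to 209 CPM in Cap-L and 21.8 to 24.1 in Cap-B (log2 difference -3.12, adjusted p = 4.21e-18), and it was lower in Bell-B than in Bell-L (-1.55, adjusted p = 1.24e-32) and after culture (-2.74, adjusted p = 3.22e-25). Foxf2 was lower in the buccal part at the cap stage (-1.61, adjusted p = 8.67e-13) and after culture (-2.64, adjusted p = 7.88e-21), but at the bell stage the parts overlapped, at 48.3 to 49.2 and 47.6 to 50.5 CPM. Foxc2 was at 5.65 to 5.79 CPM in Cap-L+2D and at 0.82 to 1.09 in Cap-B+2D (-2.62, adjusted p = 6.19e-14). The cell cycle gene Ccnd1 was the 1 target higher in the buccal part after culture (0.66, adjusted p = 7.63e-13). From cap to bell 6 of 12 rose in the lingual part and 8 rose in the buccal part, where 14.2% and 12.0% of all genes rose, with list medians of 0.47 and 1.11 beside 0.0017 and 0.0050 for all genes. In the undivided mesenchyme 1 of 12 rose, where 10.3% of all genes did.

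**Figure D5:**
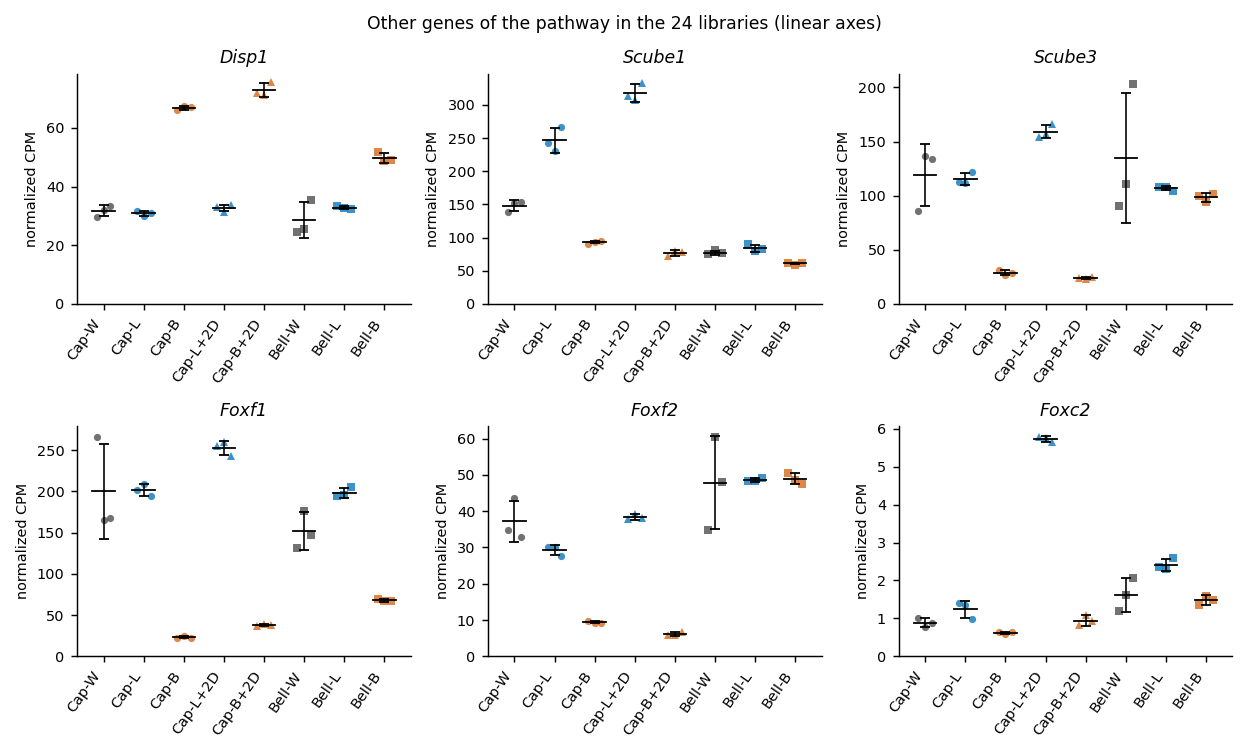
Normalized CPM (vertical axes, linear from 0) of Disp1, Scube1, Scube3, Foxf1, Foxf2 and Foxc2 in the 3 libraries of each of the 8 groups (horizontal axes); symbols are libraries, lines means and bars 1 SD. Scube3 stood at 112 to 122 CPM in Cap-L and at 26.5 to 30.9 in Cap-B, and Foxf1 was higher in the lingual than in the buccal part at each time point.

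Across the 24 libraries Shh, Ptch1, Gli1 and Hhip varied together, as did Boc and Gas1, which ran against Ptch1. The following correlations describe libraries that come in groups of 3 and are not independent. On the log2 scale, Shh and Ptch1 had a Pearson correlation of 0.96, Shh and Gli1 of 0.90, Ptch1 and Gli1 of 0.89, and Shh and Hhip of 0.78. Boc and Gas1 correlated at 0.93 with each other and at -0.77 and -0.64 with Ptch1. Smo correlated with no member beyond 0.32 in size. Among 14013 genes with an average log2 CPM of at least 2, those most like Shh included Ptch1 (0.96) and the hyaluronan synthase gene Has3 (0.95), and those most like Ptch1 included the transcription factor gene Sox5 (0.97) and Decr1 (0.96), which encodes a mitochondrial enzyme of fatty acid breakdown. For Gli1 they included Sox5 (0.95) and the desmosomal cadherin gene Dsg3 (0.94), and for Hhip they were Trabd2b (0.95), Itga1 (0.94) and Plppr1 (0.93). Dsg3, an epithelial gene, had a mean of 13.5 ± 1.4 CPM in Cap-L+2D and 0.107 ± 0.052 in Cap-B+2D (SD, n = 3), while Sox5 was at 7.37 ± 0.35 and 0.924 ± 0.028 and Trabd2b at 49.8 ± 0.3 and 17.3 ± 0.9.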

How the data were processed

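The authors deposited 1 table of raw counts of read pairs per gene, without normalization, for 24 libraries. Its header names featureCounts 2.0.0 in paired mode over the exons of Ensembl release 107 of GRCm39, without strand and without read pairs that map to several places or genes, so genes that overlap others are undercounted. The submitters' processing notes list Trimmomatic 0.39, Bowtie 1.2.3 and Subread 2.0.3, whereas the study's methods name another aligner and another library kit than the labels. That conflict was not settled.

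Counts were analysed in R 4.3.3 with edgeR 4.0.16 (TMM normalization, filterByExpr filter, quasi-likelihood test, Benjamini-Hochberg adjustment over all genes tested). A gene was called where its adjusted p was below 0.05 and its log2 fold change above 0.5 in size, and for interactions by the former alone. The undivided mesenchyme, and the 2 sides at each time point, were fitted over the 6 libraries compared, stage and culture within a side over its 9 libraries, and interactions over 12. SEs were derived from the fold change and its F statistic, and are too small where a group holds few counts, so they are not given for Shh there. A two-sided exact permutation test of 3 against 3 libraries cannot go below p = 0.1. The replicate number was no block. Same-numbered libraries correlated between -0.241 and 0.242 in their deviations from group means, no comparison had all 3 above 0.1, and so the numbers were taken not to pair them. No pair of replicates agreed within sampling noise (mean chi-square per gene from 1.34 to 189). The check had no reference value for a library sequenced again, so it cannot exclude this for the closest pairs. It also cannot tell whether replicates were made from the same RNA.

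Gene symbols came from GENCODE M39, which named 56017 of the 56748 gene IDs, and promoters were read from GRCm39 with it. Named genes were the 9 members, genes of the other pathway lists by role, and the 3 genes most correlated with each of Shh, Ptch1, Gli1 and Hhip. Of these, 1 gene outside the members is not reported here. The members and lists were chosen with earlier results of these data known. The pipeline was tested on simulated data. Alternatives were RLE normalization, DESeq2 1.42.0, other filters, 1 fit of all 24 libraries, the replicate block, scaling without the 100 most abundant genes, no limit on the fold and leaving out each library.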

Additional observations from a re-analysis of the deposited data

Results flagged for a closer look

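The effects of stage or culture on 8 of the 9 members differed between the lingual and buccal parts by a test of the difference itself, edgeR's interaction term with Benjamini-Hochberg adjustment. For side by stage, the log2 interaction, buccal minus lingual at the bell stage less that at the cap stage, was 0.85 for Ptch1, -0.17 for Gli1, -1.67 for Hhip, -0.58 for Boc and -0.70 for Gas1. For side by culture it was -0.98 for Ptch1, -2.95 for Gli1, -0.35 for Gli2 (adjusted p = 0.000208), 0.37 for Gli3 (adjusted p = 0.000211), -3.77 for Hhip, -0.53 for Boc (adjusted p = 1.03e-08) and -0.45 for Gas1 (adjusted p = 2.39e-06). That of Shh was -7.13 (adjusted p = 0.000107), a fitted value that depends on the prior count because Cap-B+2D had 0 counts, and so no measure of size. With 3 libraries a group, no group was tested for a library far from the others.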

How the results depend on the processing

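Over 1437 fits of a member under an alternative, 1386 stayed on their side of the threshold in the same direction, 27 lost and 24 gained the call, and 0 reversed. Counts of members called stayed within 1.5 times the reported one except in these cases. In the undivided mesenchyme, 3 to 4 were called in place of 5 with 1 library left out. Without a limit on the fold change, 5 in place of 1 were called between the bell stage parts, 9 in place of 5 from cap to bell in the buccal part and 9 in place of 5 for its culture, where the fit of all 24 libraries called 3. In the other comparisons, leaving out 1 library gave 4 to 5 members between the cap stage parts, 1 to 1 between the bell stage parts, 6 to 7 between the cultured parts, 5 to 6 and 5 to 5 from cap to bell in the lingual and buccal parts, 6 to 7 and 4 to 5 for their culture, and 4 to 6 and 8 to 8 for the interactions of side with stage and with culture. With the replicate block, whose pairing rests on numbers alone, the counts of members did not change (5 in the undivided mesenchyme), and no call of a member did. All genes called in the undivided mesenchyme numbered 2791 with the block in place of 3037.

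Of single members, Gli3 in the undivided mesenchyme was called by DESeq2 (-0.55, adjusted p = 0.0361) and with all 24 libraries (adjusted p = 0.000662). The latter fit did not call Shh or Gli3 for side by culture (adjusted p = 0.166 and 0.0927), nor Gli1 for side by stage (adjusted p = 0.591). Without Cap-L replicate 2, Gas1 was called from cap to bell in the lingual part (0.50) and Gli2 for side by stage (0.18). Causes were not tested.

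Counts over all genes moved by over 1.5 times in 3 settings. Without a limit on the fold change they were 8746 in place of 3611 at the cap stage, 7846 in place of 2729 at the bell stage, 11569 in place of 5315 after culture, 10725 in place of 4290 and 10557 in place of 4114 from cap to bell in the lingual and buccal parts, and 14126 in place of 7593 and 14768 in place of 7598 for their culture. With all 24 libraries they were 5887 in place of 3037 in the undivided mesenchyme and 2581 and 4048 in place of 7137 and 7842 for the interactions. In the undivided mesenchyme they were 1758 without Cap-W replicate 3 and 1832 without Bell-W replicate 2. Depth limits Shh in Cap-L, Cap-B and Cap-B+2D, where a library held at most 9 counts.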
